A study of Mus musculus with 12 samples.

Results

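The genes described here are 9 regulators of skeletal muscle fate, an alternative to the cardiac fate, and the data are the genomic regions bound by BRG1 in mouse cardiac precursors (CPs). The 9 genes, Pax3, Pax7, Six4, Eya1, Myf5, Myf6, Myod1, Myog and Msc, were taken by name from 22367 annotated protein-coding genes. A gene was scored for a region at a promoter, meaning 1 kb either side of any annotated transcription start site (TSS), in the gene body, and within 100 kb of either end. The study profiled BRG1, the ATPase of BAF chromatin remodeling complexes, by ChIPseq, with 12 libraries from CPs and cardiomyocytes that were made from mouse embryonic stem cells. The list of regions used here came from wild-type CPs of the W4/129S6 strain at passage 15 to 20, with 2 BRG1 ChIP libraries and 1 input library behind it. By the growth protocol, embryoid bodies received VEGF, Activin and BMP4, and the monolayers that followed received FGFs, while a day of collection was not among the labels. A further 9 libraries, which cover cardiomyocytes, BAF170 KO cells and BAF60c KO cells, were not analysed here. The list held 4791 rows and 3473 distinct regions with a median width of 360 bp, and 793 of these regions (22.8%) stood on more than 1 row. The number of rows is the number of BRG1 sites that the study gives for CPs, but the number of distinct regions is the number it gives for cardiomyocytes. Why regions were repeated, and whether the distinct regions are the sites of CPs or come from a join with the sites of cardiomyocytes, cannot be told from the list, and this limit holds for each count below. The list gave positions only, without height or P-value, so no value below has a replicate error, regions cannot be ranked by strength, and the depth of the libraries is unknown. Because no expression was measured in these libraries, the label of the cells could not be checked against markers.

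Skeletal muscle of the trunk and limbs arises from somite cells that express the paired-box factors Pax3 and Pax7. Homeodomain factors such as Six4 bind DNA with Eya co-activators and act upstream of, and together with, the Pax factors. The myogenic bHLH factors then commit cells to muscle: Myf5 and Myod1 in determination, Myf6 in determination and later differentiation, and Myog in the differentiation of myoblasts. They pair with E proteins and bind E-box sequences. Msc, also called MyoR, is a related bHLH repressor that also takes part in the formation of jaw muscles.

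A single member, Eya1, had a BRG1 region at a promoter, 1 of 9 beside 11.9% of all protein-coding genes (2667 of 22367). The same region was the only 1 in the body of any member, 1 of 9 beside 12.3% of protein-coding genes. Within 100 kb, 3 of 9 members had a region, Eya1, Myod1 and Myog, beside 40.3% of protein-coding genes. With 9 genes, the counts at promoters, in bodies and within 100 kb all lay near these backgrounds. In all, 5 distinct regions lay within 100 kb of a member: 1 at Eya1, 1 at Myod1 and 3 at Myog. Of these 5 regions, the Myod1 one was listed on 2 rows and the other 4 on 1 row each.

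The upstream sequences of Eya1, Six4 and Myf5 are shown as those of the member with a region at a promoter and of 2 members without one, which were chosen after their CpG content was seen, Six4 with a CpG-rich promoter and Myf5 with a CpG-poor one. Of the 9 members, they held the highest (Six4) and the lowest (Myf5) number of CpGs in the window shown. Each run holds the 250 bases before the 5′-most TSS, on the strand of the gene (the minus strand in all 3), with CpG dinucleotides in capitals. They lie in mm9 at chr1:14300282-14300531 for Eya1, chr12:74214402-74214651 for Six4 and chr10:106923191-106923440 for Myf5.
Eya1: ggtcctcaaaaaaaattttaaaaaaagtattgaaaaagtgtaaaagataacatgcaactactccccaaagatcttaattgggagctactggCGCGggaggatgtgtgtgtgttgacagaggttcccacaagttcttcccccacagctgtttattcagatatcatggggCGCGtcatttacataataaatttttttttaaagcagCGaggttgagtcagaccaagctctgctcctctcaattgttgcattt
Six4: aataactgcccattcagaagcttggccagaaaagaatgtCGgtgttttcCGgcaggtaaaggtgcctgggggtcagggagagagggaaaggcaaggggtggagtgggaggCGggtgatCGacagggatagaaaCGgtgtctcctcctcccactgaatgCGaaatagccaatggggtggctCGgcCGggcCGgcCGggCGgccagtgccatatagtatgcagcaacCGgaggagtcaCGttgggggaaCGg
Myf5: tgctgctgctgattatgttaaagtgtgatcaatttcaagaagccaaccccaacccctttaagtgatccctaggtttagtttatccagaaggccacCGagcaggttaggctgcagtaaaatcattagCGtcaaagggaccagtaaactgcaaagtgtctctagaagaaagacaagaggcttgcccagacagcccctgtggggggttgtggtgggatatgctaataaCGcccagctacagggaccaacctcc
The runs hold 5 CpGs for Eya1, 14 for Six4 and 3 for Myf5, and the median over the same window of all protein-coding genes was 8. These are numbers in 250 bp, and over 1 kb either side of the TSS the ratio of observed to expected CpGs was nearly equal for Eya1 (0.680) and Six4 (0.672) and lower for Myf5 (0.376). Of these 3 genes, Eya1 had a region, which lay downstream of the TSS and outside the sequence shown.

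Pax3 and Pax7, which mark and maintain the muscle progenitors, had no region in their bodies or within 100 kb. Pax3, of 95.9 kb on chr1:78097842-78193709, was the member farthest from any region. Its nearest region midpoint lay 952 kb from a TSS, farther than for 84.7% of protein-coding genes. The interval between the regions on either side of Pax3 was 2613 kb and held the TSSs of 14 protein-coding genes, Pax3 included. Pax7, of 96.5 kb on chr4:139292977-139389445, had its 5′-most TSS 236 kb from a region in an intron of Igsf21 upstream. On the downstream side, the nearest region was 259 kb from the same TSS, at the promoter of Iffo2. The downstream distance includes the gene body of 96.5 kb.

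Six4 and Eya1 act in the same pathway, and they differed in the list. Eya1, which encodes a co-activator and phosphatase, spans 141 kb on chr1:14159035-14300281 on the minus strand. Its region, chr1:14299886-14300105, was 220 bp wide, and 32.6% of all regions were narrower. It lay wholly inside exon 1 of 2 annotated transcripts, in the 5′ UTR, with its midpoint 204.5 bp downstream of the nearer TSS and 285.5 bp downstream of the 5′-most one. The region held 25 CpGs and 71.4% GC. No other annotated gene had a TSS within 1 kb of it. Because the region lay downstream of the TSS and on 1 row, the count of members with a promoter region fell to 0 when promoters covered only 1 kb upstream, beside 7.99% of protein-coding genes, and to 0 when only regions on more than 1 row were kept, beside 3.20%. Six4, which encodes a homeodomain factor, lies on chr12:74201246-74214401 and had no region within 100 kb. Its nearest region was 472 kb upstream, at the promoter of Prkch.

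**Figure D1:**
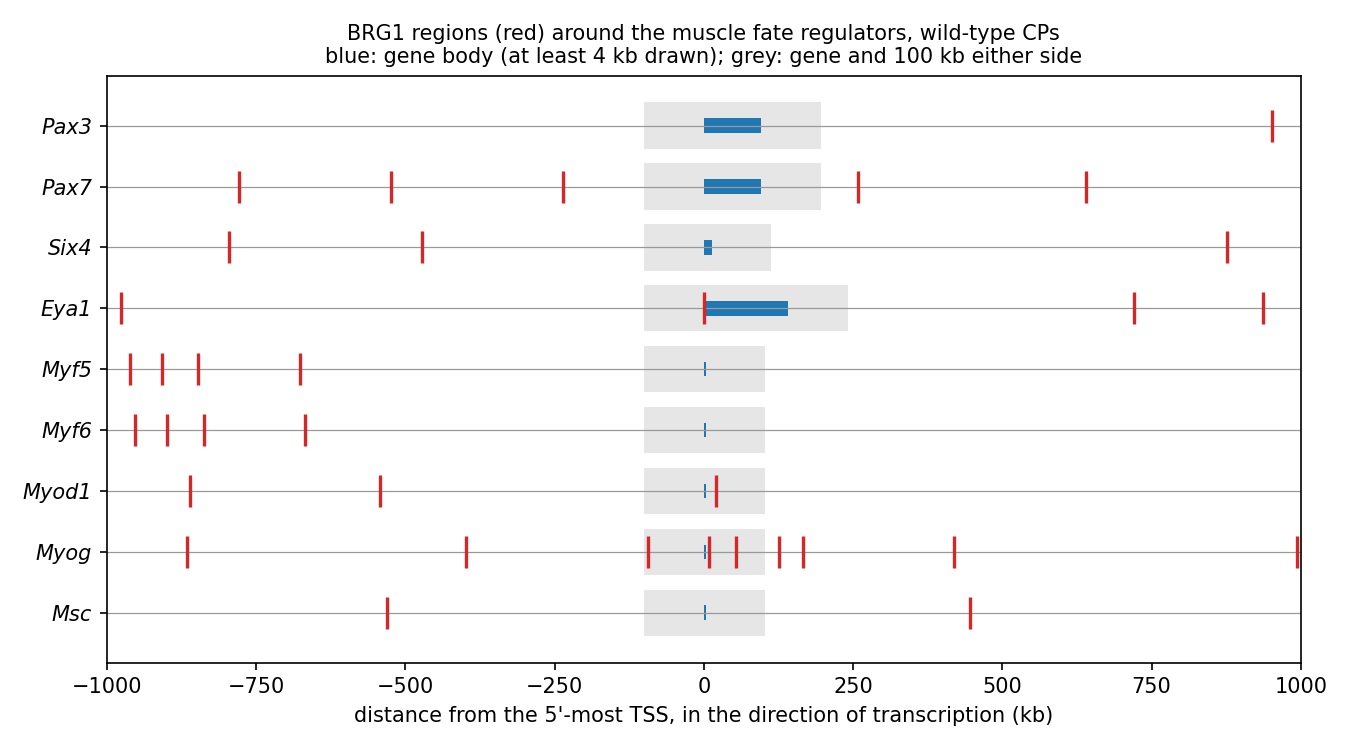
Distance in kb of each BRG1 region (red ticks) from the 5′-most TSS of the 9 members, in the direction of transcription, with gene bodies in blue and the gene with 100 kb either side in grey. Ticks fall in the grey windows of Eya1, Myod1 and Myog, with 1, 1 and 3 regions.

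Myf5 and Myf6, the neighbouring determination genes, lay in the longest interval without a region among the members. They lie on chr10:106919964-106923190 and chr10:106929916-106931785. The nearest region was 676 kb from the TSS of Myf5 and 667 kb from that of Myf6, and it was the same region, at the promoter of Ppp1r12a. On the other side, the next region was 8199 kb from the TSS of Myf5. The 2 genes thus lay in 1 interval of 8875 kb without a region midpoint, longer than 99.6% of the intervals between neighbouring regions, whose median was 272 kb. The interval held the TSSs of 39 protein-coding genes, both of them included. As neighbours, the 2 genes are not independent observations.

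Myod1, the other determination gene, lies on chr7:53631844-53634462 and had 1 region within 100 kb, chr7:53651586-53652325. The region was 740 bp wide, and 78.2% of all regions were narrower. Its midpoint lay 20.1 kb downstream of the TSS of Myod1, but 0.0885 kb downstream of a TSS of Kcnc1, which encodes a voltage-gated potassium channel. It overlapped exon 1 of Kcnc1 by 459 bp. Thus the region near Myod1 was at the promoter of another gene, and the nearest region on the upstream side of Myod1 was 543 kb away.

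Myog, the differentiation factor, lies on chr1:136186581-136189124 and was the member with the most regions within 100 kb, 3 in all. These regions are shown because they lie in an intron, partly in an exon and between genes, and none of them lay within 1 kb of an annotated TSS, whereas 73.9% of all 3473 regions did. They lie at chr1:136092386-136092505 (120 bp, in intron 3 of Mybph), at chr1:136195686-136195845 (160 bp, in Ppfia4) and at chr1:136240326-136241165 (840 bp, intergenic). The first 2 are given whole and the third by its central 300 bp, chr1:136240596-136240895, all on the plus strand of mm9 with CpGs in capitals.
Mybph intron: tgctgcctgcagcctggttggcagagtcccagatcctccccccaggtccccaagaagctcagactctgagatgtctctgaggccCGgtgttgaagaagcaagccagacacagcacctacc
Ppfia4: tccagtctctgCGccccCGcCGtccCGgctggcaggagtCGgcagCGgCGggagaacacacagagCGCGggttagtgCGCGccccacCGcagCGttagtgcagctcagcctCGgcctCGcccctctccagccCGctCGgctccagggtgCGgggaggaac
intergenic: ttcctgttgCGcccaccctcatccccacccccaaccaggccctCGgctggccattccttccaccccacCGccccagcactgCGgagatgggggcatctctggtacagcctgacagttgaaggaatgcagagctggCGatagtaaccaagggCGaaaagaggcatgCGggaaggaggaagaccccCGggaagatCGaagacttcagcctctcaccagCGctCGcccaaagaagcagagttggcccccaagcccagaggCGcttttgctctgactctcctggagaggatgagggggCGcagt
The region in Mybph, which encodes a myosin-binding protein of skeletal muscle, lay 94.1 kb upstream of the TSS of Myog and held 1 CpG. The region in Ppfia4, a gene for a liprin scaffold protein, lay 9.18 kb downstream of the TSS of Myog and held 18 CpGs. It overlapped coding exon 28 of 1 Ppfia4 transcript by 28 bp and lay within intron 26 of the other. The intergenic region lay 54.2 kb downstream of the TSS of Myog and 11.2 kb upstream of that of Ppfia4. Its central 300 bp held 13 CpGs. In windows of 300 bp centred on the regions, the numbers were 4 CpGs for Mybph, 27 for Ppfia4 and 13 for the intergenic region, beside a median of 32 over all regions.

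Msc, the bHLH repressor, lies on chr1:14743427-14746047 and had no region within 100 kb. Its nearest region was the one at the promoter of Eya1, 446 kb downstream of the TSS of Msc, so that Msc and Eya1 shared a region as their neighbour. On the upstream side the nearest region was 531 kb away and intergenic.

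Over the 9 members, the distance from a TSS to the nearest region midpoint ranged from 0.204 kb (Eya1) to 952 kb (Pax3), with a median of 446 kb. Over 22350 protein-coding genes with a region on their chromosome the median was 166 kb, with quartiles of 46.3 and 533 kb. Of the members, Eya1, Myog and Myod1 lay below the lower quartile, and Myf6, Myf5 and Pax3 above the upper one. The median of the members fell to 341 kb when Myf5 and Myf6 were counted as 1 locus.

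**Figure D2:**
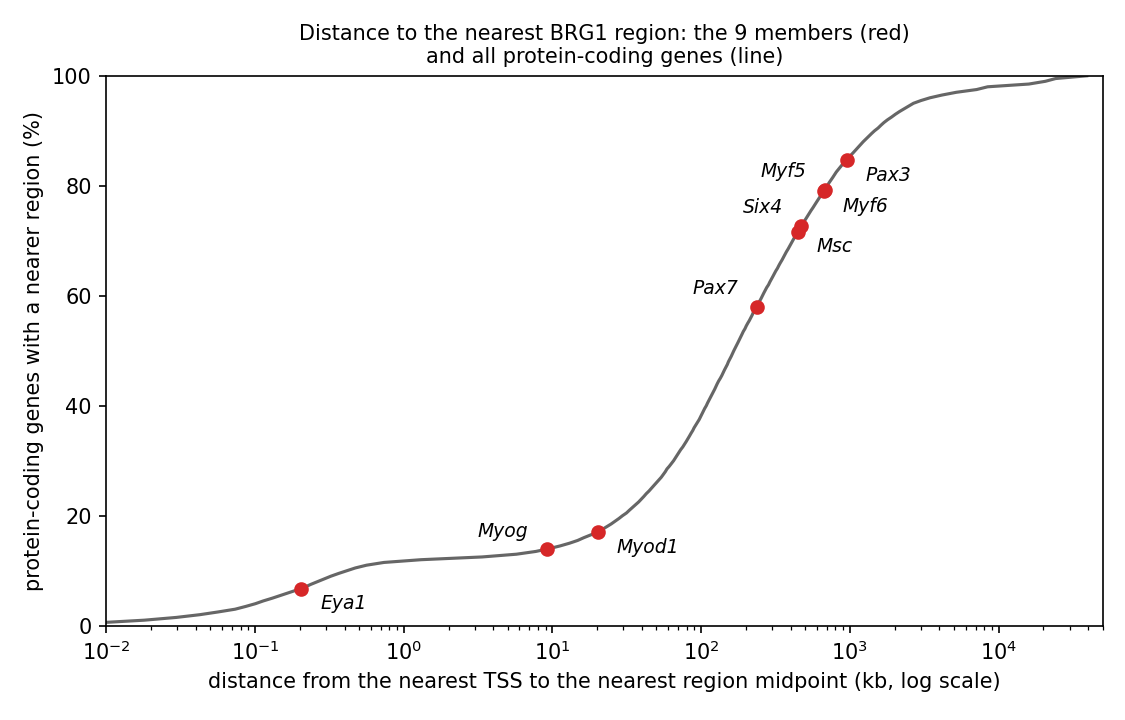
Share of protein-coding genes with a nearer region (vertical axis, %) against the distance from a TSS to the nearest region midpoint (horizontal axis, kb, log scale), for protein-coding genes (line) and the 9 members (red points). The members run from Eya1 at 0.204 kb to Pax3 at 952 kb.

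The number of neighbouring genes differed among the members. The median number of other protein-coding TSSs within 100 kb was 1 for the members, with a range of 0 to 5, and 4 for protein-coding genes. Eya1 and Pax3 had none, and of the 1747 protein-coding genes with none, 22.9% had a region within 100 kb. Myf5, Myf6, Myod1, Msc and Pax7 had 1, and of the 2640 genes with 1, 35.1% had a region. Six4 had 2, and of the 5828 genes with 2 or 3 neighbours, 41.4% had a region. Myog had 5, the most of the members, and of the 6195 genes with 4 to 6 neighbours, 44.0% had a region.

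The presence of a region at a promoter varied with CpG content. The ratio of observed to expected CpGs was taken in 1 kb either side of the 5′-most TSS of each gene, whereas a region counted at any annotated TSS. For genes with several TSSs, the region can thus lie at another promoter than the one measured. The ratio had a median of 0.468 over protein-coding genes and 0.725 over those with a region at a promoter. Of 5038 genes with a ratio below 0.2, 0.854% had a region at a promoter (95% Wilson interval 0.634 to 1.15%). Of 450 genes with a ratio of 0.9 to 1, 55.8% had one (51.2 to 60.3%). The intervals cover counting error only. Of the members, 3 had a ratio below the median of protein-coding promoters and 6 a ratio above it. Myf6 (0.289), Myog (0.296) and Myf5 (0.376) had low ratios, and 2.35% of the genes in the bin of Myf6 and Myog (0.2 to 0.3) and 2.90% of those in the bin of Myf5 (0.3 to 0.4) had a region. Myod1 (0.536), Pax3 (0.592) and Msc (0.598) lay in the bin from 0.5 to 0.6, in which 9.98% had a region. Pax7 (0.607), Six4 (0.672) and Eya1 (0.680) lay in the bin from 0.6 to 0.7, in which 18.3% had a region. No member had a ratio of 0.7 or more. CpG-rich promoters were defined by a ratio of at least 0.6 and at least 50% GC at the 5′-most TSS. Of 6653 genes with a CpG-rich promoter, 30.3% had a region at any promoter, as did 4.13% of the other 15714 genes. Pax7 and Six4 were CpG-rich and had no region, whereas Eya1 had a region and was not CpG-rich because its GC content over the window was 43.7%. These classes depended on the definition. With a ratio of at least 0.75 and at least 55% GC, the share of genes with a CpG-rich promoter that had a region was 45.4%, and no member was CpG-rich. In 500 bp either side of the TSS the share was 23.2%, and 5 members were CpG-rich, Msc, Pax3, Pax7, Six4 and Eya1.

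**Figure D3:**
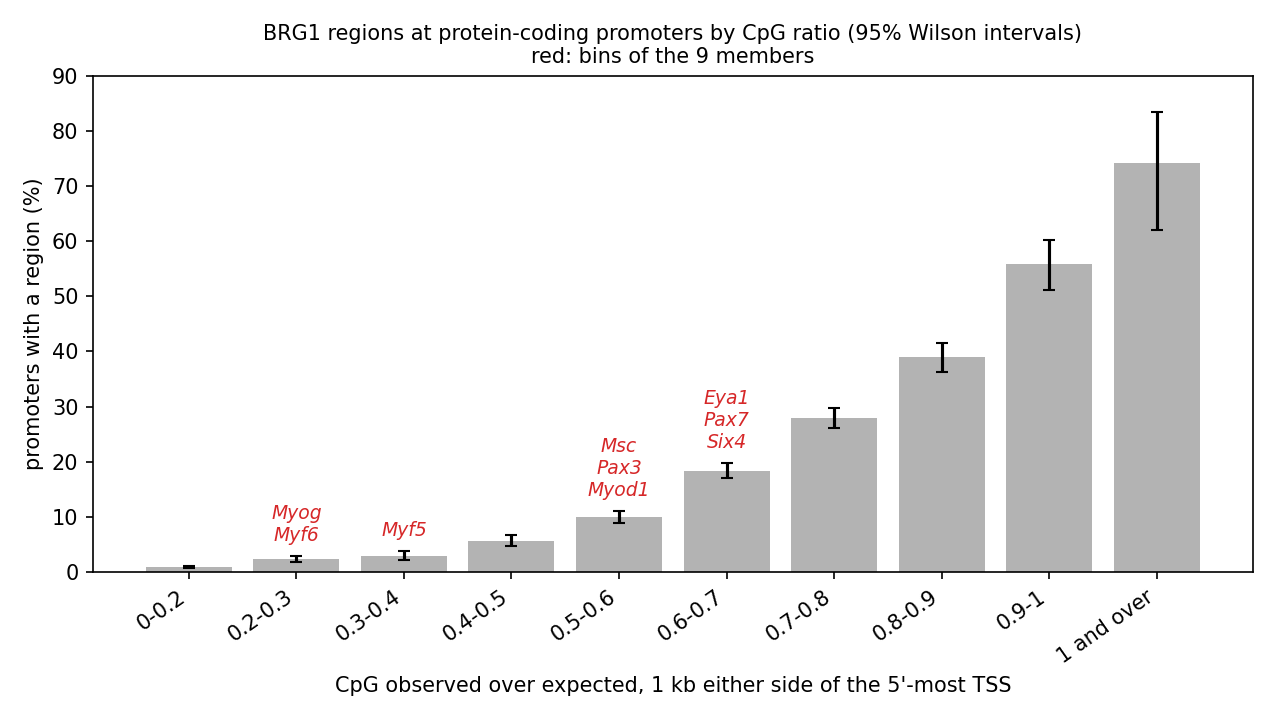
Share of protein-coding genes with a BRG1 region at any annotated promoter (bars, %, with 95% Wilson intervals) by the ratio of observed to expected CpGs in 1 kb either side of the 5′-most TSS, with the members named in red over their bins. The bars rise from 0.854% to 74.2%, and the members lie in bins of 2.35 to 18.3%.

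E-box words, to which the myogenic bHLH factors and many other bHLH factors bind, were counted on both strands of windows of 300 bp centred on the regions. The windows reach past both ends of the regions in Mybph, in Ppfia4 and at Eya1, which are narrower. The word CAGCTG was in 0 of the 5 windows near the members and in 16.9% of the windows of all 3473 regions. The word CANNTG, which includes CAGCTG, was in 4 of the 5 windows and in 56.2% of all windows. Inside the regions themselves, counted so after the data had been seen, CANNTG was in 2 of 5, those at Kcnc1 and between genes, and in 61.5% of all regions. This comparison is not at equal length. The regions with the word were 740 and 840 bp wide and those without it 120, 160 and 220 bp, beside a median of 360 bp over all regions. The matches in the windows of Mybph, Ppfia4 and Eya1 thus lay outside the listed regions. A match of letters does not show that a factor binds there.

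Reads that map to more than 1 place are lost in a filter on mapping quality, so the uniqueness of the promoters in mm9 was measured with words of 75 bp, the read length. In 1 kb either side of the 5′-most TSS of each of the 9 members, all 1927 words occurred once in the assembly. Most promoters were alike in this, with a median of 100% over 22367 protein-coding genes. In the windows of 100 kb the share ran from 93.5% (Eya1) to 99.3% (Pax7). The absence of a region from the list is not a measurement that BRG1 was absent.

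Genes that work with the members were grouped in lists. Of 18 premyogenic genes and partners of Six4 and Eya1, 5 had a region at a promoter (27.8%), beside 11.9% of protein-coding genes. When only regions on more than 1 row were kept, it was 0 of 18, beside 3.20%. Among them were Six5, a homeodomain relative of Six4, Tcf15, a bHLH factor of the paraxial mesoderm, Lbx1, a factor of migrating limb muscle precursors, and Tcf21, which acts in head muscle. Their regions were 160 bp (Six5), 280 bp (Tcf15), 640 bp (Lbx1) and 1220 bp (Tcf21) wide. Of 15 bHLH partners and inhibitors, 3 had a region at a promoter: Tcf3 and Tcf12, E proteins that dimerise with the myogenic factors, and Twist1, an inhibitor of them. Their regions were 100 bp, 1060 bp and 600 bp wide, and that of Twist1 alone was on more than 1 row. Of the 4 Mef2 factors, which cooperate with the myogenic bHLH factors in muscle and also act in the heart, Mef2d had a promoter region of 380 bp, on 1 row. Mef2c had a region within 100 kb of an end of the gene but none at a promoter, and its nearest region midpoint lay 207 kb from a TSS. Mef2a and Mef2b had none within 100 kb. Of 20 genes of differentiated skeletal muscle, 1 had a promoter region, Des, which encodes the intermediate filament desmin and is expressed in heart as well. That region measured 660 bp and was centred 0.4085 kb before a TSS.

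For comparison, 1 of 12 cardiac regulators had a region at a promoter, Isl1, a factor of cardiac precursors and motor neurons. Of 21 annotated regulators of other non-cardiac fates, 1 had one, Runx1, a factor of blood formation. These were 8.33% and 4.76% of the lists, beside 11.9% of protein-coding genes. Within 100 kb, a region was found for 8 of 18 premyogenic genes and partners, 10 of 15 bHLH partners and inhibitors, 2 of 4 Mef2 factors, 8 of 20 differentiation genes, 8 of 12 cardiac regulators and 5 of 21 regulators of other fates, beside 40.3% of protein-coding genes. Mef2c is in both the Mef2 and the cardiac list, and its region counts in both. Some differentiation genes are close neighbours on a chromosome and, like Myf5 and Myf6, are not independent observations. The lists are small and differed in CpG content: 13 of the 18 premyogenic genes and partners had CpG-rich promoters, as did 9 of the 15 bHLH partners and inhibitors, 2 of the 9 members, 2 of the 4 Mef2 factors, 4 of the 12 cardiac regulators, 11 of the 21 regulators of other fates and 1 of the 20 differentiation genes. Of the genes with these CpG-rich promoters, a region at any promoter was found for 4 of 13 premyogenic genes and partners, 3 of 9 bHLH partners and inhibitors, 0 of 2 members, 1 of 2 Mef2 factors, 1 of 4 cardiac regulators, 0 of 11 regulators of other fates and 1 of 1 differentiation genes, beside 30.3% of all genes with a CpG-rich promoter. The class rests on the 5′-most TSS, and the region of Runx1, which was not CpG-rich there, lay at another TSS. The part of CpG content in the counts of the lists was not tested.

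**Figure D4:**
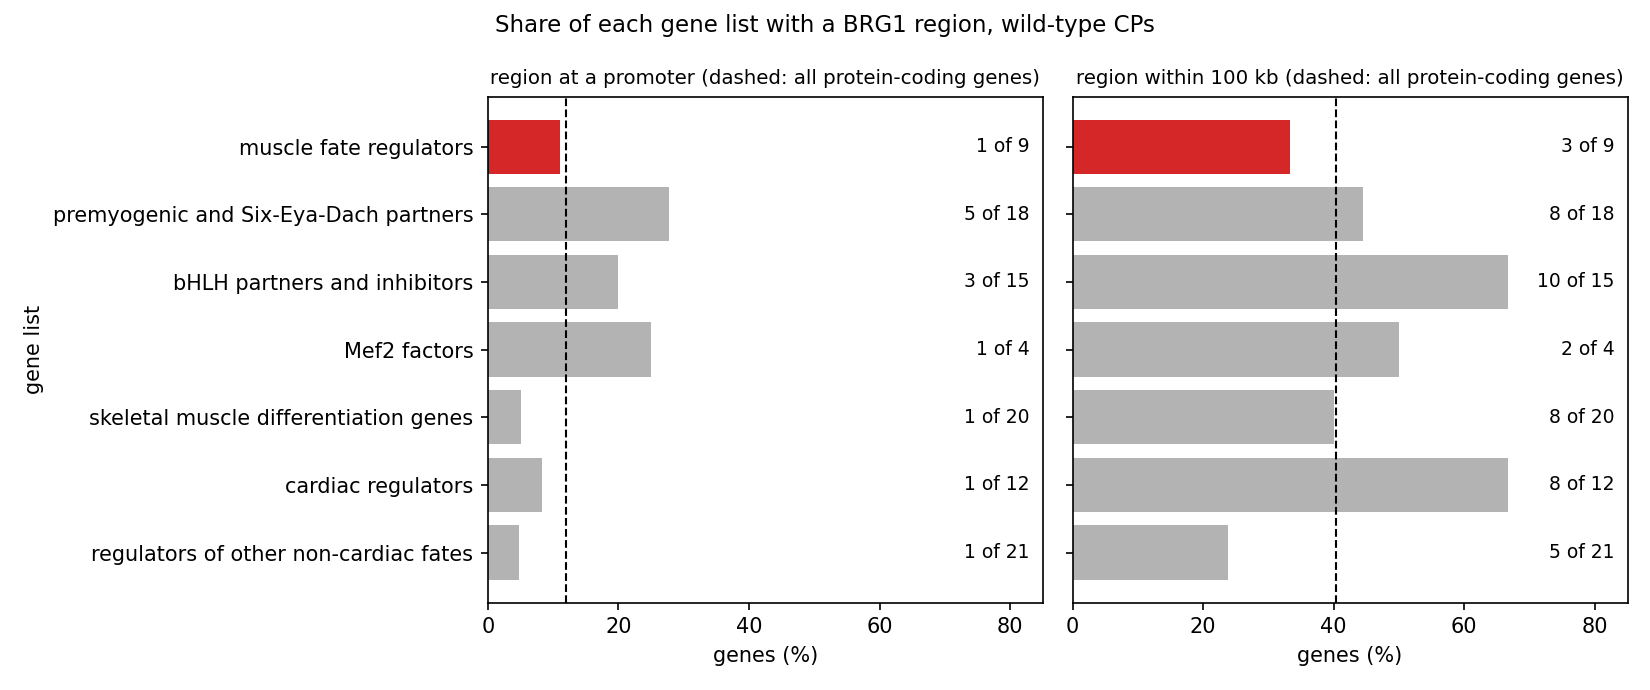
Share of the genes of each list (bars, %) with a BRG1 region at a promoter (left) and within 100 kb (right), with counts at the right edge and the share of all protein-coding genes as dashed lines, at 11.9% and 40.3%. The members (red) had 1 of 9 at a promoter and 3 of 9 within 100 kb.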

How the data were processed

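BRG1 ChIPseq of wild-type CPs was used, with 2 ChIP libraries and 1 input library. Reads were trimmed by the authors (fastq-mcf) and aligned with Bowtie to mm9. After a filter on mapping quality, they called bins in which ChIP exceeded input. The deposited values are other than a signal: positions in bp on mm9 (chromosome, start, end), without height. Versions of the aligner and the tools for trimming and calling, and how 2 libraries became 1 list, are not given in the sources used here. Depth per library is unknown.

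Identical rows were counted once. Overlaps of at least 1 bp were taken with GENCODE release M1 on autosomes, X and Y, using Python 3.11.15 with pandas 2.3.3 and numpy 2.4.6, samtools 1.23.1 and pysam 0.24.0 for sequence, numba 0.67.0 for unique words, scipy 1.17.1 for Wilson intervals and matplotlib 3.10.9 for figures. Overlaps, distances and the search for unique words were tested on simulated data. No test between groups was made. Of 90 listed genes, 89 were found by symbol or RefSeq synonym.

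The members and lists were chosen with earlier results of these data known, and the counts of neighbouring genes and intervals were added after values had been seen. The genes named are the 9 members, the genes of each list with a region at a promoter, of which 1 is not reported here, and the 4 Mef2 factors, and the regions named are those within 100 kb of a member. The genes at flanking regions were named after their values were seen. Sequences of regions that overlap a UTR are not shown. Alternatives covered promoter width and side, transcripts, midpoints, other distances, merging and rows.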

Additional observations from a re-analysis of the deposited data

How the results depend on the processing

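No paired analysis was possible because 1 list stands for both libraries and its columns carry no replicate number; for the same reason no replicate could be left out, and without P-values a stricter threshold was not possible. Of 40 alternatives over 11 results, 15 left the value within a tolerance and 25 moved it. The tolerance was 1.5 times for counts, the 95% Wilson interval for shares and the same rounded value for the median distance, so that the 17 genes of the comparison lists with a region in promoters of 5 kb either side, against 12, were within it. Keeping only regions on more than 1 row gave 0 members with a region at a promoter, 0 in the body and 1 within 100 kb, 1 region in all, a median distance of 676 kb and 4 genes of the comparison lists with a promoter region; the shares of protein-coding genes were then 3.20% at promoters, 3.24% in bodies and 10.7% within 100 kb. With promoters of 1 kb upstream only, 0 members had a region (7.99% of protein-coding genes), and with body regions outside 1 kb of any TSS, 0 members (1.62%). Promoters of 5 kb either side gave 12.9% of genes, and midpoints in the body lowered the share in bodies. Windows of 50 kb held 3 regions, with 3 of 9 members beside 28.5% of genes, and windows of 200 kb held 8 regions, with 4 of 9 members beside 55.5% of genes, so that the members lay above the share of all genes at 50 kb and below it at 100 and 200 kb. With windows around the 5′-most TSS, the share of genes was 37.0%. Counting Myf5 and Myf6 as 1 locus gave a median distance of 341 kb. The share of genes with a CpG-rich promoter that had a region at any promoter was 45.4% with a ratio of at least 0.75 and GC of at least 55%. It was 23.2% in 500 bp either side, where 5 members were CpG-rich. The E-box word CANNTG was in 4 of the 5 windows of 300 bp, which reach past 3 of the regions, and, chosen after seeing the data, in 2 whole regions. The cause of these shifts was not tested, apart from the smaller or larger windows and lists that the settings themselves make.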
